A study of Mus musculus with 12 samples.

Results

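The nuclear genome encodes most subunits of the mitochondrial respiratory chain and of ATP synthase. In the table of assembled testis transcripts, 95 of 24661 genes carried the symbol of such a subunit or of a factor named for one of the complexes. They were chosen by symbol alone: Ndufa, Ndufb, Ndufc, Ndufs and Ndufv genes, Uqcr genes, Cox4 to Cox8 genes, Atp5 genes, Sdha to Sdhd, and Cycs, Cyct and Cyc1. Each gene was the sum of its transcripts whose GffCompare class code was =, c, j or o, that is, a match to RefSeq, a part of a reference transcript, a shared junction or another exon overlap. The 95 genes had 177 such transcripts, and 52 of them had 1 transcript.

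The RNA came from whole testes of C57BL/6 mice labelled as WT testis, 3 for each age group: postnatal month 3 (3M), month 6 (6M), month 12 (12M) or month 18 (18M). No other treatment or allele is given for any group. Total RNA was depleted of ribosomal RNA before sequencing, and the libraries held 50924104 to 71803379 estimated reads. Whether the mice of an age shared a litter is not known, so p-values measure the spread between these mice.

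Oxidative phosphorylation passes electrons from NADH through complex I, and from succinate through complex II, to complex III, cytochrome c and complex IV, which reduces oxygen. The proton gradient built on the way drives ATP synthase, also called complex V. Meiotic and postmeiotic germ cells use their own versions of some parts of the chain. Cyct encodes the testis form of cytochrome c, while Cox6b2, Cox7b2 and Cox8c encode testis forms of complex IV subunits whose somatic counterparts are Cox6b1, Cox7b and Cox8a. Cycs encodes the somatic form of cytochrome c.

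The promoters of the Cyct and Cox7b2 pairs are shown, and the RNA levels within each pair differed widely in these testes. Cox8c to Cox8a, which is not shown, differed more than Cyct to Cycs. Each sequence is the 250 bases before the start of the RefSeq promoter table, on mm10 (GRCm38.p6) and on the gene's own strand, 5′ to 3′. The stretch of Cyct lies at chr2:76360454-76360703 on the minus strand, that of Cycs at chr6:50566570-50566819 on the minus strand, that of Cox7b2 at chr5:71548206-71548455 on the minus strand and that of Cox7b at chrX:106015450-106015699 on the plus strand. Capitals mark the letters of 4 motifs searched on both strands: the NRF1 core CGCATGCG, the ETS core CCGGAAGT, the cAMP response element TGACGTCA and the YY1 core AAGATGGC.
Cyct: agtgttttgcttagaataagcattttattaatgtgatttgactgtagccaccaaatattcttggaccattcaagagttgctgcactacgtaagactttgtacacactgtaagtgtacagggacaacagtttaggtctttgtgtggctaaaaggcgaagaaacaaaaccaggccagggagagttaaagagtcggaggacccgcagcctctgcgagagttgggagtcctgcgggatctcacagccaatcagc
Cycs: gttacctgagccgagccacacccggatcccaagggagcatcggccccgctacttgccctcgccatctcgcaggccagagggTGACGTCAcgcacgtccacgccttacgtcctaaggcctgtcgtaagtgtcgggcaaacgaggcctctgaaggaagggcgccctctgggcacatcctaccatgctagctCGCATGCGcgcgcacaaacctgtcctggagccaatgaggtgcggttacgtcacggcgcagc
Cox7b2: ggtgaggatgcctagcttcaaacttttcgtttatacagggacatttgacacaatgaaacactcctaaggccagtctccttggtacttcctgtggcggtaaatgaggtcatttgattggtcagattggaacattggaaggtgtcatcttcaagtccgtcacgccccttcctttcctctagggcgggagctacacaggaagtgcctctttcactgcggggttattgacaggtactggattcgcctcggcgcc
Cox7b: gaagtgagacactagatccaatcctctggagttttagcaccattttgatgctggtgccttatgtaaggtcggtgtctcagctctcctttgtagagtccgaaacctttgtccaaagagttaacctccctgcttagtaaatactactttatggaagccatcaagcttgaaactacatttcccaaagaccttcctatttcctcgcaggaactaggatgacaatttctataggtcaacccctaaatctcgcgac
The Cycs stretch held the NRF1 core 61 bases and the cAMP response element 169 bases before the start, counted to the first letter of the match. Its RefSeq start lay 95 bases from the start of the deposited Cycs transcript. No match stood in the stretches of Cyct, Cox7b2 and Cox7b, which says only that these letters are not in these windows. Among the pairs not printed, the promoter window of Cox8a held the ETS core, and those of Cox6b2 and Cox6b1 held no match. No window was found for Cox8c.

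Windows of 300 bases, including the first 50 bases of the transcript, were found for 78 of the 95 members. The NRF1 core stood in 11 of these 78 windows (14.1%) and in 1.87% of the 32851 windows of all genes. The YY1 core stood in 10 (12.8%) against 2.75%, the ETS core in 5 (6.41%) against 3.89%, and the cAMP response element in 5 (6.41%) against 1.79%. The windows with the NRF1 core were those of Atp5g2, Atp5k, Atp5l, Cox6a1, Cycs, Ndufa11, Ndufa8, Ndufaf4, Ndufaf5, Uqcr11 and Uqcrc1. The dinucleotide CG occurred 8 times in the window of Cyct and 32 times in that of Cycs, 10 times in those of Cox7b2 and Cox6b2, 5 times in that of Cox7b and 17 times in that of Cox6b1. The median was 19.5 over the member windows and 7 over all windows. These shares are descriptions of sequence and were not tested.

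All 4 testis isoforms stood above their somatic partners in each of the 12 mice. FPKM, the number of fragments scaled to transcript length and to the mapped fragments of the library, was used for this comparison because it takes account of transcript length. The aligned coding bases were 76.2% identical between Cyct and Cycs, 64.2% between Cox6b2 and Cox6b1, 65.4% between Cox7b2 and Cox7b, and 58.9% between Cox8c and Cox8a. In bulk tissue, fewer cells of a type and less RNA per cell cannot be told apart.

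Cox8c, a gene with 2 exons at chr12:102899306-102900534, had the highest mean level of all members and ranked 89 among the 24661 genes. Its FPKM was 431, 420.1 and 421 at 3M, 404, 393 and 386 at 6M, 409, 379 and 461 at 12M, and 402, 417 and 417 at 18M. Cox8a, the somatic form of the same small subunit, at chr19:7215158-7217616, had an FPKM of 26.1, 25.6 and 26.1 at 3M, 23.5, 25.9 and 34.5 at 6M, 26.3, 26.2 and 27.9 at 12M, and 27.2, 28.3 and 27.9 at 18M. The highest Cox8a library, the 6M mouse numbered 3, was far below the lowest Cox8c library. The ratio of Cox8c to Cox8a was 11.2-fold to 17.2-fold, with a mean log2 ratio of 3.93 ± 0.16 (SD, n = 12).

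Cyct at chr2:76353942-76360453 is a gene with 4 exons on the minus strand. Its FPKM was 68.2, 60.0 and 62.3 at 3M, 64.6, 62.4 and 60.2 at 6M, 69.6, 58.2 and 75.2 at 12M, and 66.9, 68.6 and 70.9 at 18M. The FPKM of Cycs, which has 3 exons at chr6:50562563-50566474, was 9.13, 8.42 and 8.21 at 3M, 7.86, 8.04 and 9.99 at 6M, 7.81, 7.22 and 8.53 at 12M, and 8.59, 8.41 and 8.34 at 18M. The 2 cytochromes did not overlap in any age, and the ratio ran from 6.03-fold to 8.91-fold with a mean log2 ratio of 2.97 ± 0.15 (SD, n = 12). In CPM, reads scaled to library size and not to transcript length, the mean log2 ratio was 0.75.

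Cox7b2, at chr5:71442823-71548205 on an autosome, and Cox7b, at chrX:106012132-106022450 on the X chromosome, showed the widest gap. The FPKM of Cox7b2 was 116, 115 and 117 at 3M, 123, 117 and 118 at 6M, 114, 106 and 127 at 12M, and 124, 122 and 129 at 18M. The FPKM of Cox7b was 4.20, 3.62 and 4.52 at 3M, 3.83, 4.83 and 5.37 at 6M, 3.25, 4.16 and 4.09 at 12M, and 4.0, 3.32 and 3.41 at 18M. Cox7b2 was 21.9-fold to 37.7-fold higher, with a mean log2 ratio of 4.89 ± 0.25 (SD, n = 12).

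Cox6b2, at chr7:4751792-4753094, and Cox6b1, at chr7:30616974-30626151, showed the narrowest gap in listed FPKM. The FPKM of Cox6b2 was 69.9, 70.2 and 75.8 at 3M, 70.8, 80.0 and 74.5 at 6M, 75.0, 66.0 and 97.8 at 12M, and 75.6, 89.0 and 81.4 at 18M. The FPKM of Cox6b1 was 22.8, 24.2 and 24.7 at 3M, 19.8, 25.7 and 28.8 at 6M, 22.7, 22.1 and 25.6 at 12M, and 24.1, 21.3 and 21.6 at 18M. The ratio was 2.58-fold to 4.19-fold, with a mean log2 ratio of 1.71 ± 0.20 (SD, n = 12). A large part of the coverage of the Cox6b2 exons was listed under another gene, as described later, and with that coverage included the ratio was 6.99-fold to 10.4-fold. Its mean log2 ratio was then 3.11, above the 2.97 of Cyct to Cycs, which became the narrowest gap. In CPM Cox6b2 to Cox6b1 stood at 1.75, also above Cyct to Cycs.

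For each of the 4 pairs, a two-sided exact permutation test that changed the signs of the 12 log2 ratios gave p = 0.000488, the smallest value it can give, and Benjamini-Hochberg adjustment over the 4 pairs left it at 0.000488. With all 12 ratios above 0, the test could give no other value. It measures only how alike the mice were, not effects of transcript length or assembly that all libraries share. Of the summed FPKM of each pair, the testis form made up 91.8% to 94.5% for Cox8c, 85.8% to 89.9% for Cyct, 95.6% to 97.4% for Cox7b2 and 72.1% to 80.7% for Cox6b2. With exon coverage the Cox6b2 share was 87.5% to 91.2%.

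**Figure D1:**
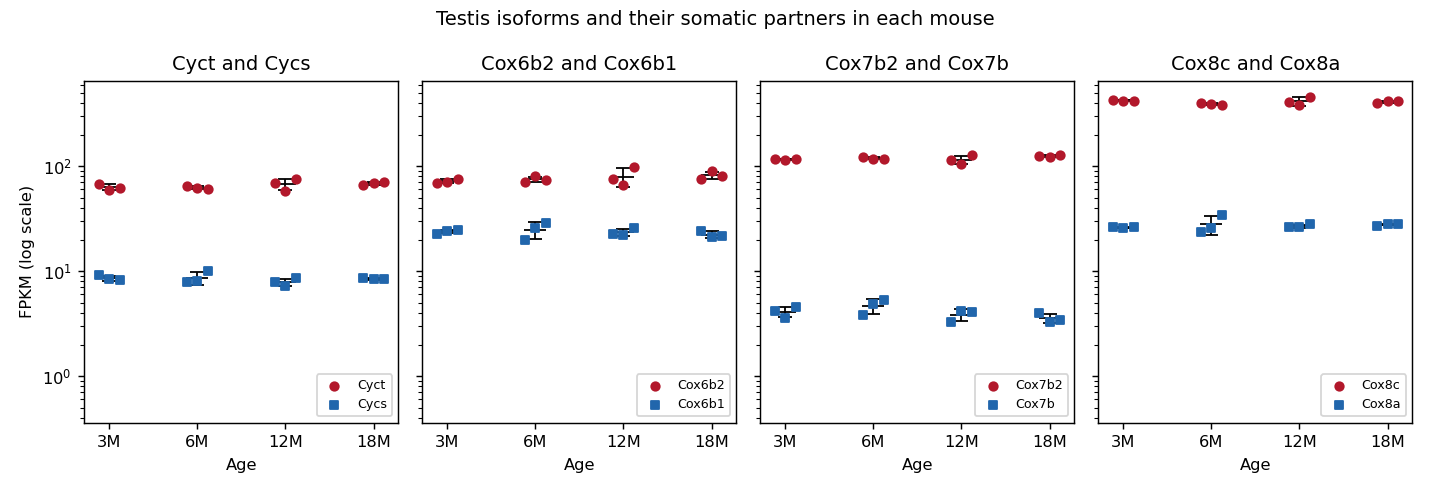
FPKM on a log scale of each testis isoform (circles) and its somatic partner (squares) in each mouse, by age, with 1 panel per pair; black marks are the mean and SD of 3 mice. In every panel all 12 circles lie above all 12 squares, from the 2.58-fold lowest ratio of Cox6b2 to Cox6b1 to the 37.7-fold highest ratio of Cox7b2 to Cox7b.

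Between 3M and 18M the mean log2 ratio went from 2.89 to 3.03 for Cyct to Cycs, from 1.59 to 1.88 for Cox6b2 to Cox6b1, from 4.83 to 5.13 for Cox7b2 to Cox7b, and from 4.03 to 3.89 for Cox8c to Cox8a. The 18M mice all lay above the 3M mice for the first 2 of these pairs and all below them for Cox8c to Cox8a, and they overlapped for Cox7b2 to Cox7b. The two-sided exact permutation p was 0.1 for the 3 pairs without overlap, the smallest value that 3 mice against 3 allow, and 0.2 for Cox7b2 to Cox7b. The change of 0.30 for Cox7b2 to Cox7b was 0.74 without overlap and with p = 0.1 by the same exact test when transcripts of class code = alone were used, and 0.19 in CPM. After Benjamini-Hochberg adjustment over the 4 pairs these were 0.133 and 0.2, so this design could not reach the threshold of 0.05.

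Isoforms known from striated muscle and lung were at low levels. Cox6a2 and Cox8b, heart and skeletal muscle forms, had means of 0.329 ± 0.103 FPKM (SD, n = 12) and 0.493 ± 1.18 FPKM (SD, n = 12), and Cox7a1, another muscle form, had 1.39 ± 0.501 FPKM (SD, n = 12). Cox4i2, a form known from lung, had 0.657 ± 0.205 FPKM (SD, n = 12). Among their widely expressed counterparts, Cox6a1 had 139 ± 9.81 FPKM (SD, n = 12) and Cox4i1 had 207 ± 11.2 FPKM (SD, n = 12). Cox7a2, the counterpart of Cox7a1, was listed below it at 0.125 FPKM, while its exons had a mean coverage of 104 on the FPKM scale, as described later. Cox8b was listed at 0 in 9 of the 12 libraries, and its values of 2.04, 0.122 and 3.76 FPKM came from 1 mouse each at 3M, 6M and 18M. Ndufa4l2 and Ndufa4, a pair of related genes assigned to complex IV, stood close together at 25.0 ± 1.90 FPKM (SD, n = 12) and 19.5 ± 2.04 FPKM (SD, n = 12).

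Most members stood at high levels. The median of the 95 mean levels was 45.1 FPKM, 83 members had a mean of 10 FPKM or more, 19 had 100 FPKM or more, and 59 lay in the top 10% of all genes by mean FPKM. At the other end, 9 members had a mean under 5 FPKM, and 5 of these were under 1 FPKM, among them Cox7a2 by its listed value. The coefficient of variation over the 12 libraries had a median of 7.85%, and it was under 10% for 65 members and 20% or more for 10. On exon coverage, described later, it was 20% or more for 5 members.

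Complex I had 43 members with a median level of 39.9 FPKM. Its 7 core subunits, which carry the flavin and iron-sulfur clusters or stand beside them, had a median of 50.2 FPKM, and its 29 accessory subunits had 45.1 FPKM. The 7 assembly factors, which help to build the complex and are not part of it, had a median of 5.44 FPKM. They included both extremes of the complex, Ndufaf3 with 169.7 ± 9.18 FPKM (SD, n = 12) and Ndufaf6 with 0.658 ± 0.185 FPKM (SD, n = 12). The 4 subunits of complex II, succinate dehydrogenase, ran from 27.9 ± 1.85 FPKM (SD, n = 12) for the membrane anchor Sdhd to 58.6 ± 3.05 FPKM (SD, n = 12) for the iron-sulfur subunit Sdhb.

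Complex III ran from 23.2 ± 1.45 FPKM (SD, n = 12) for Cyc1, which encodes cytochrome c1, to 155 ± 3.87 FPKM (SD, n = 12) for the core protein Uqcrc1, the member of that complex with a coefficient of variation of 2.50%. In complex V, the catalytic beta subunit Atp5b was highest at 237 ± 13.8 FPKM (SD, n = 12). Atp5l, a subunit of the membrane part, was listed lowest at 11.9 ± 3.22 FPKM (SD, n = 12), with a higher coverage of its exons, given later. The 3 X-linked members had 18.5 ± 1.71 FPKM (SD, n = 12) for Ndufa1, 9.65 ± 1.18 FPKM (SD, n = 12) for Ndufb11 and 4.05 ± 0.636 FPKM (SD, n = 12) for Cox7b, while the median of the 92 autosomal members was 48.8 FPKM. Some autosomal members stood at such levels or lower, among them Atp5s at 18.6 FPKM, Cycs at 8.38 FPKM and Ndufaf6 at 0.658 FPKM.

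**Figure D2:**
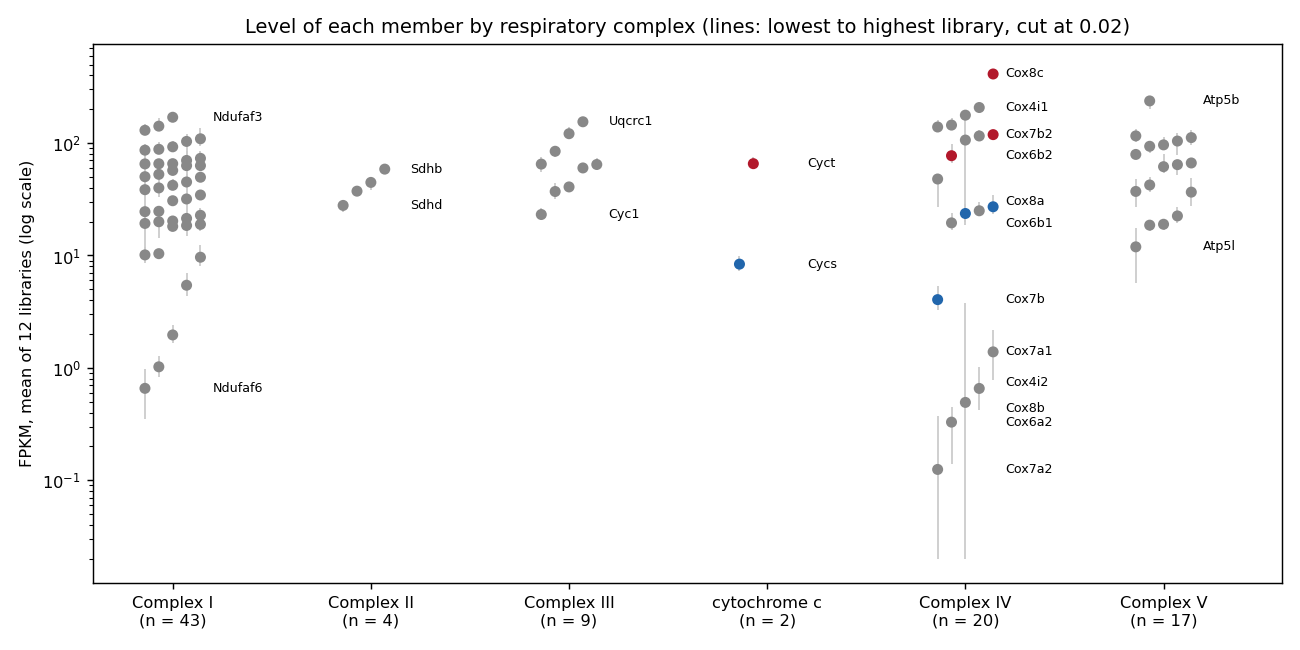
Mean FPKM of each of the 95 members on a log scale by complex, with lines from the lowest to the highest of the 12 libraries; red points are the 4 testis isoforms and blue points their somatic partners. Cox8c stands highest at 412 FPKM, and the muscle and lung isoforms form a low group in complex IV. Cox7a2 is drawn beside them by its listed value, while nearly all coverage of its exons was listed under another gene.

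For some members the listed value was not the coverage of the gene's exons. In the assembly, some transcript models listed under a neighbouring gene ran across the exons of a member. Coverage was therefore also summed over the exons of each member's RefSeq-matching transcripts, whatever gene the covering transcript was listed under, and put on the FPKM scale of the library. Of the 95 members, 6 shared exon coverage with another gene's models, and for 5 of them the share exceeded 30% on average.

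Cox7a2, the liver form of a complex IV subunit that most tissues use, was listed as the lowest member at 0.125 ± 0.114 FPKM (SD, n = 12). Its exon coverage was 106, 97.6 and 102 at 3M, 96.1, 94.7 and 103 at 6M, 97.6, 94.6 and 123 at 12M, and 110.4, 108 and 115 at 18M on the FPKM scale. On average 99.9% of that coverage was listed under Tmem30a. The 4 exons of Cox7a2 at chr9:79755241-79759853 were thus covered in every library at a mean of 104 ± 8.85 (SD, n = 12), while its rank of 17863 among all genes counted only the transcript listed under its own name.

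Cox6c, a complex IV subunit, and Ndufs5, a complex I subunit, had listed values that changed from library to library. The listed FPKM of Cox6c was 163, 75.3 and 175 at 3M, 24.7, 152 and 18.9 at 6M, 159.6, 86.2 and 134 at 12M, and 64.2, 176 and 48.3 at 18M. Its exon coverage was 170.4, 153 and 175 at 3M, 160.3, 161 and 178 at 6M, 159.6, 149 and 185 at 12M, and 162, 176 and 175 at 18M. The coefficient of variation was 56.1% for the listed values and 6.49% for the coverage, of which up to 89.4% was listed under Rgs22.

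The listed FPKM of Ndufs5 was 67.6, 45.3 and 46.1 at 3M, 15.6, 60.0 and 14.2 at 6M, 48.0, 12.2 and 72 at 12M, and 10.8, 13.7 and 56.2 at 18M. The libraries fell into a low set from 10.8 to 15.6 FPKM and a high set from 45.3 to 72 FPKM, and each age had mice in the high set. Its exon coverage was 66.3, 44.1 and 45.0 at 3M, 62.8, 58.5 and 61.3 at 6M, 46.6, 61.8 and 70.5 at 12M, and 67.3, 64.6 and 54.6 at 18M, and the coefficient of variation went from 61.3% to 15.4%. The remainder was listed under BC002163.

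Atp5l had 32.6% of its coverage listed under Ube4a on average, and its coefficient of variation went from 27.0% to 9.22%. At 3M the coverage of Atp5l stood above its listed FPKM in each mouse, as given later with its slope. Cox6b2 had 64.8% to 69.9% listed under Fam71e2 and a coverage of 193, 188 and 196 at 3M, 187, 195 and 202 at 6M, 201, 185 and 261 at 12M, and 207, 211 and 224 at 18M. Ndufa6, a complex I subunit, had a second model of 14430 nt, and its coefficient of variation went from 57.1% to 16.1%. Ndufa13 had a mean coverage of 70.6 on the FPKM scale from transcripts on the opposite strand, and without strand information in the libraries the 2 cannot be told apart.

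**Figure D3:**
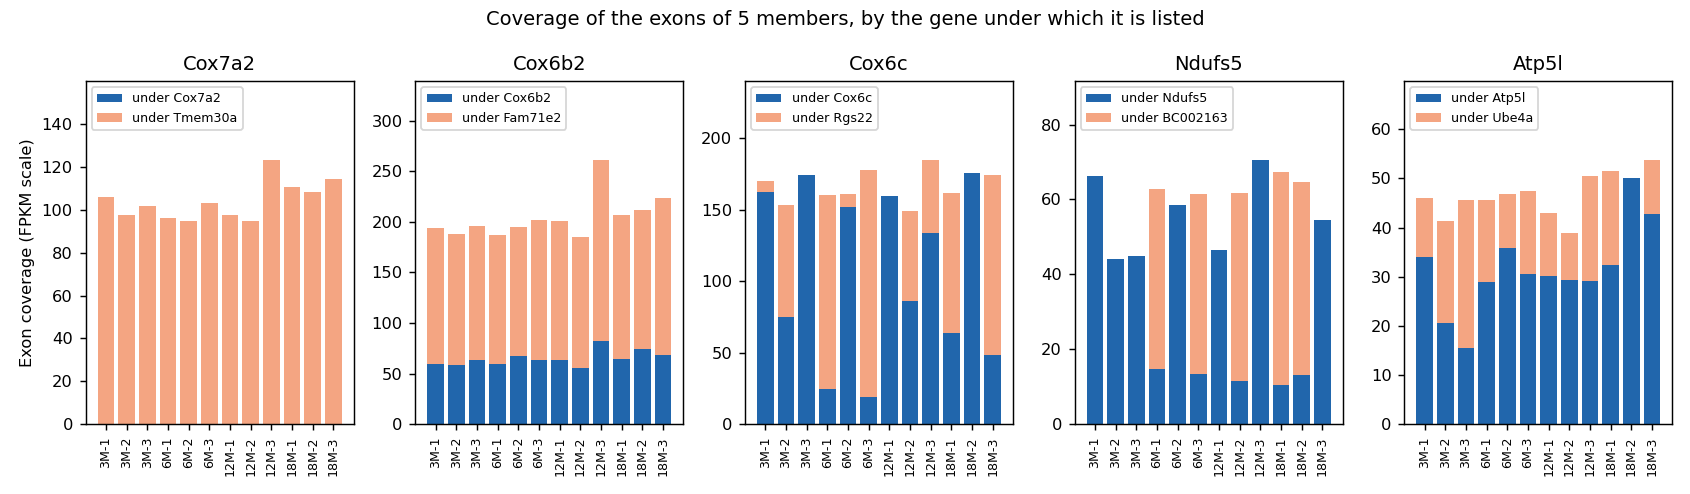
Coverage on the FPKM scale over the RefSeq-matching exons of 5 members in each library, with 1 panel per gene, split by the gene under which the covering transcripts were listed. For Cox7a2 nearly all of each bar is listed under Tmem30a, and for Cox6c and Ndufs5 the split changes between libraries while the whole bar changes far less.

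No member passed the threshold for a change with age. edgeR's quasi-likelihood test was fitted across all genes 3 times, on a slope over the 4 ages, on 3M against 18M, and on any difference among the ages, with Benjamini-Hochberg adjustment over all genes and a threshold of 0.05. The filter on low counts kept 93 of the 95 members in each fit and left out Cox7a2 and Cox8b. The slope was called for 0 of the 93 members (0.409% of all 18583 genes tested), the 3M against 18M difference for 0 of 93 (0.0661% of 18160) and any difference for 0 of 93 (0.07% of 18583). At an unadjusted p of 0.05 or less, the 3 fits held 13 members (17.5% of all genes), 16 members (13.5%) and 5 members (10.3%). These counts turned on single mice. The slope count was 6 without the third mouse of 18M and 20 without the second mouse of 12M, and the 3M against 18M count was 4 without the second mouse of 3M, 4 without the third mouse of 18M, 6 without the second mouse of 18M and 4 when all 12 libraries shared the fit.

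The fitted values of the members leaned upward. From 3M to 18M, 73 of 93 members had a log2 fold change above 0, against 49.6% of all genes, and for the slope 72 of 93 did, against 49.4%. Of the 16 members with an unadjusted p of 0.05 or less, 13 were higher at 18M (6.27% of all genes) and 3 lower (7.22%). The total of 16 was 4 without the second mouse of 3M or without the third mouse of 18M. All 3 mice of 18M lay above all 3 mice of 3M for 21 members (9.7% of all genes) and below them for 5 (10.8%). The median log2 fold change was 0.07 over the members and -0.0019 over all genes tested. Without the second mouse of 3M the median over the members was 0.04.

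Other genes with short transcripts leaned the same way. Of the members tested, 57 had a mean transcript length under 1000 nt, weighted by reads. Among all genes of that length, 75.7% had a log2 fold change above 0 and 21.4% had all 18M mice higher, where 47 and 15 of the 57 short members did. Among longer genes these shares were 46.7% and 8.4%, where 26 and 6 of the 36 longer members did. The median log2 fold change was 0.11 over all short genes and 0.08 over the short members, and -0.01 over all longer genes and 0.02 over the longer members. The part of transcript length in the upward lean of the members was not tested, and the split at 1000 nt was chosen after seeing the data.

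The share of gene reads on genes under 1000 nt was 7.95, 7.29 and 7.65 at 3M, 7.39, 7.55 and 7.59 at 6M, 7.70, 7.42 and 9.37 at 12M, and 8.02, 8.23 and 8.61 at 18M, in percent. The third mouse of 12M stood apart from the other libraries with the highest share. It was the highest of the 12 libraries by FPKM for 43 of the 95 members. The median log2 deviation of short members from their mean over all libraries was 0.20 in that library, and that of other short genes was also 0.20.

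**Figure D4:**
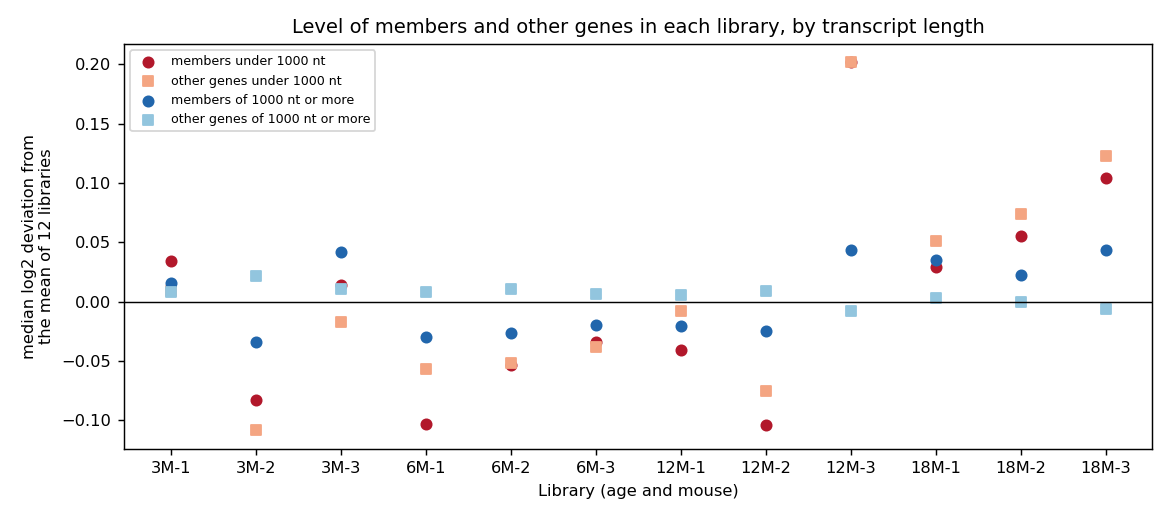
Median log2 deviation from the mean of the 12 libraries for members (circles) and other genes (squares), split at a transcript length of 1000 nt, in each library. Short members and other short genes stand together at 0.20 in the third mouse of 12M, and short genes of both kinds are above 0 in all 3 mice of 18M.

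Markers of testis cell types were read beside these values. The summed level of 12 spermatid markers ran from 17456 to 19451 CPM at 3M and from 18519 to 21699 CPM at 18M. The highest of the 12 by FPKM were Prm1, Prm2, Tnp1 and Tnp2, at 3720 to 8272. Fitted slopes were above 0 for 12 of 12, beside 49.4% of all genes and 1458 of 1912 genes under 1000 nt. From 3M to 18M, 11 of the 12 had fitted values above 0, beside 49.6% of all genes and 75.7% of genes under 1000 nt. The slope was called for 0 of the 12 (0.409% of all genes). An edgeR unadjusted p of 0.05 or less was found for 6 of the 12 in the slope fit (17.5% of all genes). In 3M against 18M it was found for 5 of the 12 (13.5%). The summed level of 10 Leydig cell markers ran from 939.6 to 1112 CPM at 3M and from 631 to 824 CPM at 18M without overlap. Of these 10, the slope fit called 3, all falling with age, Cyp11a1, Cyp17a1 and Lhcgr (0.409% of all genes were called). The 3M against 18M fit called 1 of the 10 (0.0661% of all genes). Fitted values were above 0 for 2 of the 10 in both fits, Hsd3b1 and Fdx1. By FPKM, Insl3 stood highest of the 10 at 841, followed by Cyp17a1 at 52.9. None of the 10 was at 0 in all libraries. Markers of 10 other cell types were read, from spermatogonia, spermatocytes and Sertoli cells to blood, muscle, fat and epididymis. None of those tested was called in any of the 3 fits (0.409%, 0.0661% and 0.07% of all genes). The low-count filter kept 5 of 11 striated muscle markers in the slope and 3M against 18M fits. Of 10 epididymis markers it kept 2 and 1. Markers left out could not be called. The epididymis markers Lcn5, Spint4, Adam28 and Adam7 were at 0 in all libraries. The part of these cell types in the values of the members was not tested.

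Among the individual members, those with the largest differences without overlap between 3M and 18M were followed. Atp5g1, a gene for the c subunit of the rotor ring of ATP synthase, had an FPKM of 30.7, 29.6 and 31.2 at 3M, 40.6, 42.3 and 32.6 at 6M, 36.9, 27.4 and 48.7 at 12M, and 42.1, 32.7 and 44.4 at 18M. The 3M mice lay below all 18M mice, and the log2 fold change was 0.40 ± 0.11 (SE) with an edgeR adjusted p of 0.293. DESeq2 called it at an adjusted p of 0.0442 and called no other member, where it called 1.39% of all genes with an adjusted p.

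Atp5e, the epsilon subunit of the ATP synthase stalk, had an FPKM of 101, 94.3 and 107 at 3M, 92.9, 105 and 104 at 6M, 89.6, 78.1 and 124 at 12M, and 122, 114 and 120.0 at 18M. Its log2 fold change was 0.25 ± 0.06 (SE), the smallest unadjusted p of any member at 0.00463, with an edgeR adjusted p of 0.290. The third mouse of 12M was the highest and the second mouse of 12M the lowest, so the ages between did not follow an order.

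Ndufa2 and Ndufs7, an accessory and a core subunit of complex I, and Ndufaf5, an assembly factor, completed the 5 largest positive values without overlap. Over all tested members, with overlap or without, the highest log2 fold change was 0.79, among the membrane and stalk subunits of complex V. The lowest was -0.96, in complex I. These fits used listed values, and these groups include Atp5l and Ndufs5, whose exon coverage was partly listed under another gene. The FPKM of Ndufa2 was 84.7, 76.0 and 90.5 at 3M and 95.0, 95.8 and 95.6 at 18M, a log2 fold change of 0.20 ± 0.07 (SE). Ndufs7 had 20.4, 17.5 and 18.9 FPKM at 3M and 20.9, 20.8 and 24.8 FPKM at 18M, and Ndufaf5 had 1.80, 1.76 and 1.85 FPKM and 2.43, 1.90 and 2.03 FPKM. Their edgeR adjusted p-values were 0.321, 0.390 and 0.380. Without the second mouse of 3M the log2 fold change went from 0.20 to 0.13 for Ndufa2 and from 0.18 to 0.11 for Ndufs7, and without the first mouse of 18M that of Ndufaf5 went from 0.25 to 0.15. With class code = alone that of Ndufs7 was 1.05.

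The 5 members with all 18M mice lower (10.8% of all genes) were Sdha, Sdhd, Cox7a1, Ndufb11 and Atp5k, so 2 of them were among the 4 subunits of complex II. The FPKM of Sdha, the flavoprotein that oxidises succinate, was 46.3, 47.7 and 47.4 at 3M, 46.3, 46.4 and 46.2 at 6M, 43.3, 46.2 and 38.0 at 12M, and 44.8, 42.8 and 40.7 at 18M. Its log2 fold change was -0.13 ± 0.05 (SE) with an edgeR adjusted p of 0.334. The FPKM of Sdhd was 29.5, 29.3 and 28.8 at 3M and 28.0, 24.8 and 28.3 at 18M, a log2 fold change of -0.09 ± 0.06 (SE) that was -0.04 without the second mouse of 18M. The other subunits, Sdhb and Sdhc, overlapped between the ages.

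Cox7a1 had an FPKM of 2.17, 1.86 and 2.07 at 3M, 0.970, 0.773 and 1.76 at 6M, 0.981, 0.940 and 1.40 at 12M, and 0.916, 1.10 and 1.74 at 18M. Its 3M mice were all above its 18M mice, and the log2 fold change was -0.66 ± 0.28 (SE) with an edgeR adjusted p of 0.369. The FPKM of Ndufb11, an X-linked accessory subunit of complex I, was 11.1, 9.43 and 9.96 at 3M, 9.10, 10.3 and 12.5 at 6M, 9.28, 9.27 and 9.15 at 12M, and 8.84, 8.77 and 8.11 at 18M. It was lower in every 18M mouse than in every other mouse, with a log2 fold change of -0.23 ± 0.09 (SE) and an edgeR adjusted p of 0.350. Atp5k, a membrane subunit of ATP synthase, had 69.8, 69.3 and 67.7 FPKM at 3M and 63.0, 60.5 and 65.3 FPKM at 18M, a log2 fold change of -0.12 ± 0.06 (SE).

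In the slope over the 4 ages, the 5 members with the smallest unadjusted p were Cox5a, Uqcrfs1, Atp5l, Ndufb11 and Ndufaf2. Cox5a, a complex IV subunit, had an FPKM of 173, 171 and 178 at 3M, 168, 172 and 175 at 6M, 181, 174 and 173 at 12M, and 186, 182 and 192 at 18M, and all 18M mice lay above all others. Its slope was 0.0084 per month on the log2 scale with an edgeR adjusted p of 0.153, the smallest of any member. Uqcrfs1, the Rieske iron-sulfur protein of complex III, had a slope of 0.0105 and an adjusted p of 0.163 by edgeR. Ndufaf2, an assembly factor, had a slope of 0.0116 with an edgeR adjusted p of 0.207, and Ndufb11 had a slope of -0.0182 with 0.188 by edgeR. For Atp5l the slope of 0.0442 rested on listed FPKM values of 17.6, 7.09 and 5.65 at 3M, while its exon coverage was 46.0, 41.3 and 45.5 at 3M and 51.5, 50.1 and 53.7 at 18M. With class code = alone the slope was 0.0048 for Atp5l and 0.0172 for Uqcrfs1.

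**Figure D5:**
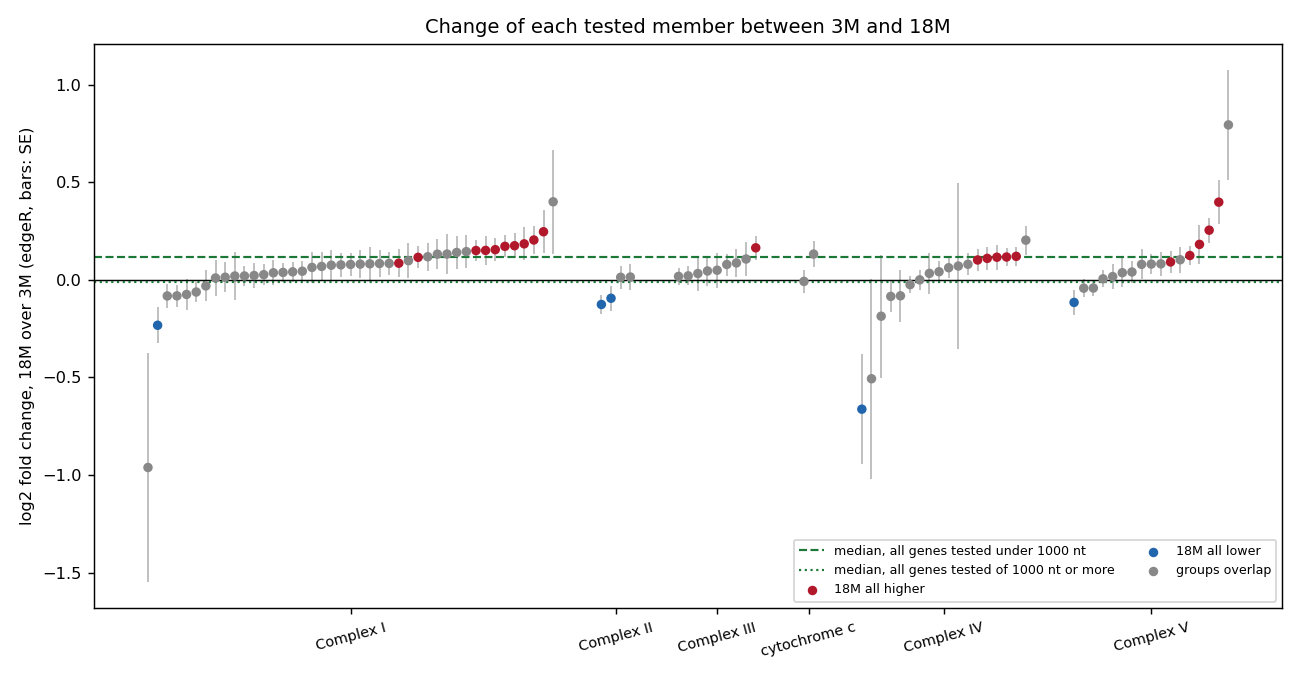
log2 fold change from 3M to 18M of the 93 tested members by complex, with SE bars; red and blue points are members whose 18M mice were all higher or all lower, and green lines are the medians of all genes under 1000 nt (dashed, 0.11) and of longer genes (dotted, -0.01). Of the 93 points, 73 lie above 0, and complex II has 2 of its 4 points below 0 without overlap, where 10.8% of all genes were lower without overlap.

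By complex, the median log2 fold change from 3M to 18M was 0.08 for the 43 members of complex I, -0.04 for the 4 of complex II, 0.05 for the 9 of complex III, 0.05 for the 18 of complex IV that were tested, and 0.08 for the 17 of complex V, beside -0.0019 over all genes. In complex III, 9 of 9 members had values above 0, beside 49.6% of all genes and 75.7% of all genes under 1000 nt. The members together took 5654, 5339 and 5663 at 3M, 5269.6, 5466 and 5409.9 at 6M, 5446, 5348 and 5873 at 12M, and 5644, 5675 and 5796 at 18M CPM. The means were 5552 ± 184 CPM at 3M and 5705 ± 80.4 CPM at 18M (SD, n = 3), and the 3M and 18M mice overlapped. The difference of 153 CPM was 46.8 CPM without the second mouse of 3M.

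Genes that work with these members were read from 3 lists. None of 36 assembly factors of the respiratory chain, 16 regulators of mitochondrial biogenesis and 7 carriers and channels for ADP, ATP and phosphate passed the test in either direction in any of the 3 fits. Unadjusted p-values of 0.05 or less in the slope fit numbered 6, 0 and 0 (17.5% of all genes). Nrf1, which encodes the factor that binds the NRF1 motif, had 8.68 ± 0.482 FPKM (SD, n = 12). Ppargc1a, a coactivator known for driving mitochondrial biogenesis, had 0.44 ± 0.073 FPKM. Slc25a31, the ADP/ATP carrier known from germ cells, had 22.3 ± 0.882 FPKM, beside 23.9 ± 2.28 FPKM for Slc25a4 and 22.4 ± 2.87 FPKM for Slc25a5.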

How the data were processed

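Testis RNA from 12 mice was sequenced as paired-end libraries made with a TruSeq kit without strand marking. Alignment by the authors was to mm10 (HISAT2), and StringTie 1.3.3b built 1 merged set of transcripts and its values in every library. The estimated counts deposited by the authors are whole numbers per transcript and are not normalized. The FPKM values deposited by the authors are corrected for transcript length and sequencing depth only. The assembled transcripts of each library, which give coverage per exon, were deposited too. No measurement column was left without a sample.

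Reads and FPKM were summed per gene over class codes =, c, j and o, with no further rounding. edgeR 4.0.16 (R 4.3.3) used total reads per library, TMM factors of 0.991 to 1.03, filterByExpr, a quasi-likelihood test and Benjamini-Hochberg adjustment over all genes, at a threshold of 0.05; DESeq2 1.42.0 was an alternative. The scripts were tested on simulated data. Log2 ratios used log2(FPKM + 0.001), with exact permutation tests in scipy 1.17.1. Promoter windows came from RefSeq (GRCm38.p6), and coding sequences from GENCODE, aligned with Biopython 1.88.

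Named genes were the isoform pairs, the muscle, lung and related isoforms with their counterparts, called members, the 5 smallest slope p-values, the 5 largest values of each sign without overlap between 3M and 18M, and the highest and lowest member of each complex. Members with other genes on their exons, and other members beside these, were named after their values were seen. Members, lists and tests were chosen with earlier results of these data known. Same-numbered libraries of different ages had correlated deviations from -0.0672 to 0.178, with 1 of 18 pairs above 0.1, so the numbers were not taken to pair the mice. Beside the age groups, markers of 12 cell types and 3 lists of related genes were read.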

Additional observations from a re-analysis of the deposited data

Results flagged for a closer look

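The 10 assembled transcripts of chromosome M, the mitochondrial genome, carry no gene name and stand outside the comparisons of the nuclear members. They held from 13080 to 368999 reads per library, which is 0.0231% to 0.621% of the library. The 3M libraries had a mean of 38791 ± 23175 reads (SD, n = 3) and the 18M libraries 59885 ± 13051 reads (SD, n = 3). The libraries of 6M had 140773 ± 143782 reads (SD, n = 3), and those of 12M had 174318 ± 175115 reads (SD, n = 3). At 6M and 12M the SD exceeded the mean. The mitochondrially encoded subunits of the complexes are not analysed here. The groups held 3 mice, too few for the test of single outlying mice.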

How the results depend on the processing

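No member was called by edgeR under any normalization, low-count filter, class code choice or omitted mouse, and leaving out 1 mouse at a time kept the count at 0 in all 3 fits. One omission came close to the threshold. In 3M against 18M without the third mouse of 18M, the smallest edgeR adjusted p of a member was 0.0507. It was not one of the members followed above for differences without overlap. Among those, Atp5g1, Atp5e and Cox7a1 had the lowest edgeR adjusted p in this setting, 0.608. In the mice left, listed Ndufs5 was lower in each 18M mouse than in each 3M mouse, while its exon coverage was not. The fits were not run on exon coverage. For any age without the third mouse of 12M it was 0.0933 by edgeR. With unadjusted p-values the counts were 13 for the slope, 16 for 3M against 18M and 5 for any age. Leaving out 1 mouse moved them to between 6 and 20, 4 and 12, and 3 and 18, the last being highest without the third mouse of 12M and 9 without the second. DESeq2 called 1 member between 3M and 18M, Atp5g1, with a log2 fold change of 0.40. The replicate numbers were not taken to pair the mice. With the replicate block 0 members were called in each fit, with 6 at an unadjusted p of 0.05 or less between 3M and 18M and a median log2 fold change of 0.08. The median of the members was 0.04 without the second mouse of 3M and 0.08 without the first mouse of 18M. Each isoform ratio kept its direction in all alternatives. On CPM, which ignores length, the mean log2 ratio of Cyct to Cycs was 0.75, and with exon coverage of every transcript, chosen after seeing the data, that of Cox6b2 to Cox6b1 was 3.11. For Cox7b2 to Cox7b, class = alone gave a change of 0.74 from 3M to 18M in place of 0.30, without overlap, and CPM gave 0.19. With 3 mice per age, differences as small as those of the members were not resolved after adjustment, and listed values of members with joined models follow the assembly.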
